A study of Mus musculus with 12 samples.

Results

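Sarcomere and Z-disc genes encode the contractile machinery of heart muscle and the structures that anchor it. The genes described here came from a list of 34 entries, 1 of them given in duplicate, and all 33 different genes had at least 10 normalised reads in at least 3 of the 12 libraries. They are 33 of 13865 tested genes and were sorted into 7 thick filament genes, 6 thin filament genes, 3 genes of titin and the M-band and 17 Z-disc genes. RNA was sequenced from fresh heart ventricles of untreated mice in 4 groups of 3 libraries: LCHADD females, WT females, LCHADD males and WT males. LCHADD is deficiency of long-chain 3-hydroxyacyl-CoA dehydrogenase, an activity of the mitochondrial trifunctional protein that oxidises long-chain fatty acids, and WT is wild type. The title places the mice in a study of acute arrhythmias. Age, strain, the way the gene was altered and the origin of the WT mice are not in the labels. Nothing in them ties a library to a separate animal, so p-values here measure the spread between libraries, which may be technical.

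In a sarcomere, myosin thick filaments slide along actin thin filaments when calcium binds troponin C and the troponin complex shifts tropomyosin off the actin. Thin filaments are anchored in the Z-disc by alpha-actinin, thick filaments are held in register at the M-band by myomesins, and titin spans from Z-disc to M-band as a spring. The adult mouse ventricle runs mainly on alpha myosin heavy chain, while beta myosin heavy chain dominates before birth and returns in many forms of cardiac load.

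The libraries held 15.6 to 23.2 M reads assigned to genes (M, mega), 16.7 to 19.0 M in LCHADD and 15.6 to 23.2 M in WT. Genes of the mitochondrial genome took 31.0 to 37.9% of the reads in LCHADD and 27.5 to 32.7% in WT. The ventricle markers Irx4 and Hey2 were present in every library, at 452 to 719 and 44.4 to 58.4 normalised reads in LCHADD against 530 to 681 and 80.1 to 120 in WT. Of a list of 7 atrial markers, Myl7 reached at most 5.47 normalised reads and Sln 1.14. Bmp10 of the same list was higher in LCHADD in both sexes. Hadha, which encodes the deficient activity, had 23343 to 25688 normalised reads in LCHADD females against 21430 to 23126 in WT females, and 27283 to 28083 in LCHADD males against 23402 to 25845 in WT males, which is no check of the genotype, since its molecular form is not in the labels. LCHADD females 2 and 3 both lay away from their group mates for these genes, by a median of 0.281 and 0.271 log2 units over the 33, and by more than 0.5 for 9 and 6 genes. LCHADD female 2 was the lowest of its group for 23 of 33, as was LCHADD male 3 of its own. Results that rest on one of these libraries are given with and without it.

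Most sarcomere genes were lower in LCHADD ventricles. In a fit of all 12 libraries more of them passed in females than in males. The test of the difference between the sexes itself passed for 0 of 33 in limma. A value is a normalised read count as deposited, which is the read count divided by the library's size factor. A change is LCHADD minus WT on the scale of log2 of the value plus 1, given as the estimate ± the SE of the fit. Genes with an adjusted p under 0.05 (limma, Benjamini-Hochberg over all 13865 genes) are said to have passed. The 4 groups share a single estimate of each gene's spread, so male p-values also carry the spread of the LCHADD females. Leaving out a female library can thus move a male adjusted p while the male change stays the same. In females 2 of the 33 genes rose, 21 fell and 10 did not pass, where 16.7% of all tested genes rose and 17.2% fell (33.8% passed). In males 0 rose, 8 fell and 25 did not pass, where 7.71% of all tested genes rose and 7.77% fell (15.5% passed). 11 of the 33 had an unadjusted p under 0.05 in males, where 4120 of all 13865 tested genes did. EdgeR and DESeq2 each called 9 of the 33 in males, where they called 2149 and 2303 of all tested genes. With each sex fitted alone, 16 passed in females and 15 in males, where 3436 and 3342 of all 13865 tested genes did. Without LCHADD female 2 the counts were 21 in females and 14 in males, where 4269 and 3293 of all tested genes passed. For the mean of the female and male changes 4 rose and 18 fell, where 20.3% of all tested genes rose and 20.6% fell (40.8% passed). The median change of the 33 genes was -0.35 in females, -0.13 in males and -0.24 for the mean, beside medians of 0.00 over all tested genes in each comparison. The LCHADD libraries lay below the WT libraries without overlap for 21 of 33 genes and above for 2 in females (22.3 and 22.2% of all tested genes), and below for 14 and above for 4 in males (19.3 and 19.6%). All 6 LCHADD libraries were below all 6 WT libraries for 8 genes and above for 0, where 9.91% of all tested genes were apart downwards and 9.82% upwards. 7 genes fell in both sexes and 0 rose in both, where 6.69% of all tested genes fell and 6.72% rose in both. In a bulk ventricle, fewer cardiomyocytes and less of these transcripts per cardiomyocyte cannot be told apart.

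**Figure D1:**
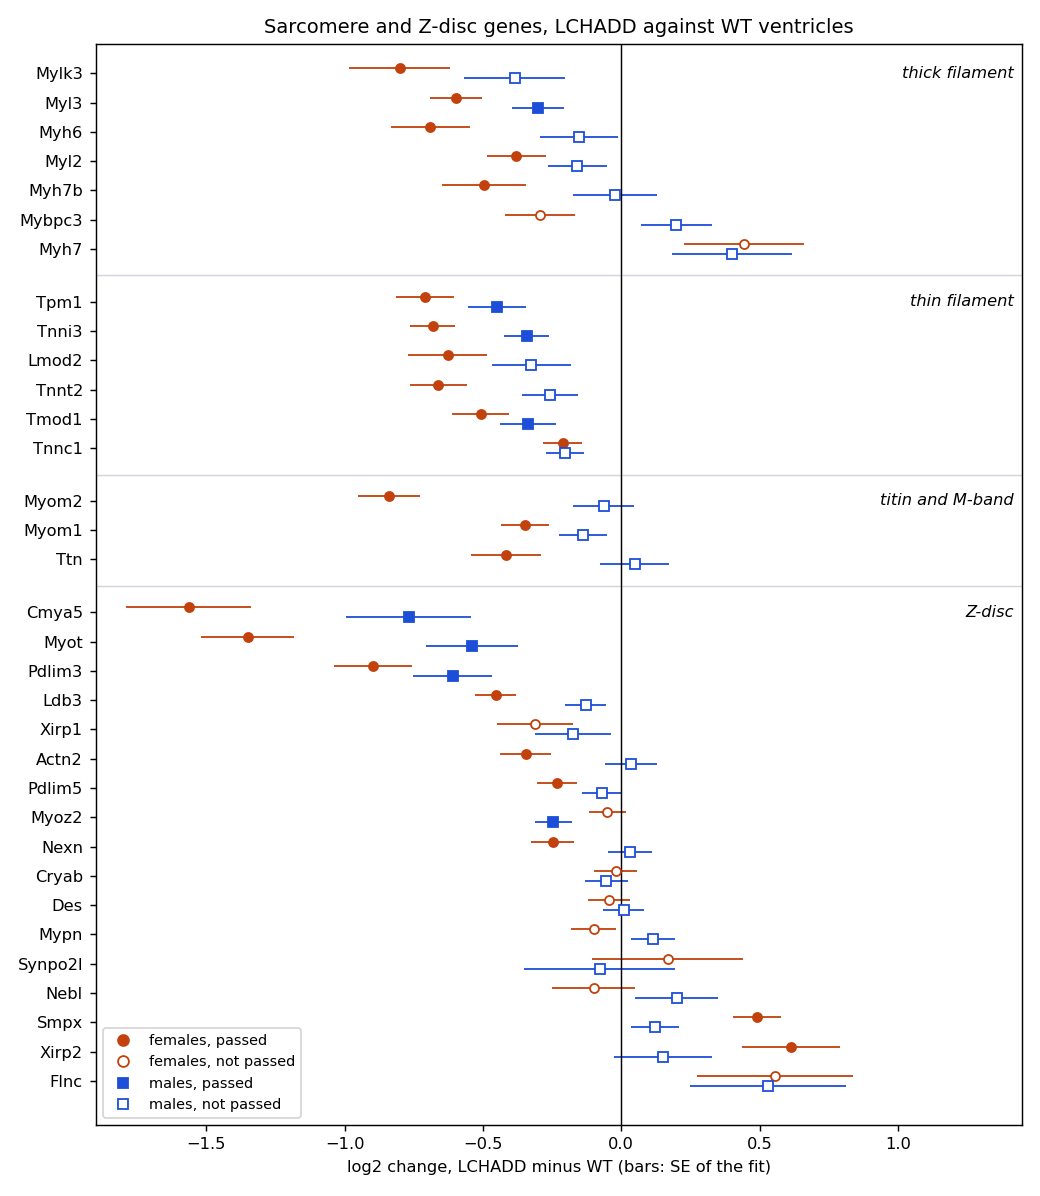
Change of each of the 33 genes in LCHADD against WT ventricles (x axis, log2 units; bars, SE of the fit) in females (orange circles) and males (blue squares), filled where the gene passed. All 6 thin filament genes lie left of 0 in both sexes, while Z-disc genes run from -1.56 for Cmya5 to 0.61 for Xirp2 in females.

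Among the thick filament genes, 5 of 7 fell and 0 rose in females, and 1 fell in males. Over all tested genes, 17.2% fell in females and 7.77% in males. The median change of the 7 was -0.50 in females and -0.15 in males. The genes of the alpha and beta heavy chains, Myh6 (ENSMUSG00000040752) and Myh7 (ENSMUSG00000053093), lie next to each other on chromosome 14 and had changes of opposite sign. Myh6 had 268243, 202890 and 306374 normalised reads in LCHADD females, against 419854, 411552 and 404883 in WT females. In males it had 359191, 377718 and 309090 with LCHADD, against 407769, 365627 and 386533 in WT. The female groups were apart and the male groups overlapped. Myh6 fell in females, at -0.69 ± 0.14 (adjusted p = 0.0016), but its male change of -0.15 ± 0.14 (adjusted p = 0.51) did not pass; the mean was -0.42 ± 0.10 (adjusted p = 0.0035). Myh7 had 4868, 3151 and 2403 in LCHADD females, against 2101, 2584 and 2697 in WT females, and 3156, 3851 and 2232 in LCHADD males, against 2417, 2455 and 1985 in WT males. The groups overlapped in both sexes, LCHADD female 3 and LCHADD male 3 being within their WT ranges. Myh7 passed only for the mean, at 0.42 ± 0.15 (adjusted p = 0.038), with 0.44 ± 0.22 (adjusted p = 0.13) in females and 0.40 ± 0.22 (adjusted p = 0.23) in males. That call was lost when any of 8 libraries was left out (all but LCHADD females 2 and 3, LCHADD male 3 and WT female 3), at changes of 0.29 to 0.45 and adjusted p of 0.051 to 0.10, and the female change was 0.17 without LCHADD female 1 (adjusted p = 0.54) and passed at 0.68 without LCHADD female 3 (adjusted p = 0.013). The male change was 0.22 without LCHADD male 2 (adjusted p = 0.58) and 0.62 without LCHADD male 3 (adjusted p = 0.088). The sequences of Myh6 and Myh7 are closely similar, so reads of the abundant gene assigned to the other cannot be told apart. Exons of Myh7 also overlap the antisense gene Mhrt, which had 7.36% of its normalised reads, and the use of strand in counting is not given.

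The upstream sequences of both genes are shown because the pair shares a motif at nearly the same distance from its start sites. They are the 250 bases before the start of each gene (RefSeq, build GRCm38.p6, minus strand, Myh6 at chr14:54966608-54966857 and Myh7 at chr14:54994627-54994876), and capitals mark the MCAT element CATTCC, a binding motif of TEAD factors, here on the opposite strand as GGAATG.
Myh6: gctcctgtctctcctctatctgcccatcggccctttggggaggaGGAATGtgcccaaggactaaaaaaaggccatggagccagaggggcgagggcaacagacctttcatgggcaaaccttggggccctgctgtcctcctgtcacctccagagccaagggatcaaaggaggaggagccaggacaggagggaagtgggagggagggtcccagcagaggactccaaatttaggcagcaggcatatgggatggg
Myh7: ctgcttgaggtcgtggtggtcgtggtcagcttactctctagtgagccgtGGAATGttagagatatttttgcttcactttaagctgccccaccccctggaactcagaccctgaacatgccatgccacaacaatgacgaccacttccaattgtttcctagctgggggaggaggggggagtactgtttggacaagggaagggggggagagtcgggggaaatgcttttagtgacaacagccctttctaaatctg

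Reads of the beta myosin heavy chain gene took a larger share of the cardiac heavy chain reads in LCHADD ventricles. Myh7 made up 1.78, 1.53 and 0.778% of the normalised reads of Myh6 plus Myh7 in LCHADD females, against 0.498, 0.624 and 0.662% in WT females. In LCHADD males it made up 0.871, 1.01 and 0.717%, against 0.589, 0.667 and 0.511% in WT males. Every LCHADD library was above every WT library. The mean was 1.11 ± 0.438% in LCHADD and 0.592 ± 0.0734% in WT (SD, n = 6 each), a difference of 0.523 points (exact permutation test within sex, two-sided p = 0.005, the smallest the 400 arrangements can give). Within a sex the exact test gave p = 0.1 for both the female difference of 0.769 points and the male difference of 0.277 points, the smallest p that 3 against 3 libraries allow. Without WT female 1, 2 or 3 the difference was 0.499, 0.53 and 0.54 points, at an exact p of 0.05, 0.04 and 0.035. Every LCHADD library still lay above every WT library there. With unequal groups the two-sided p also counts arrangements of the opposite sign. The share compares reads without regard to gene length, and does not depend on the scaling of the libraries.

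**Figure D2:**
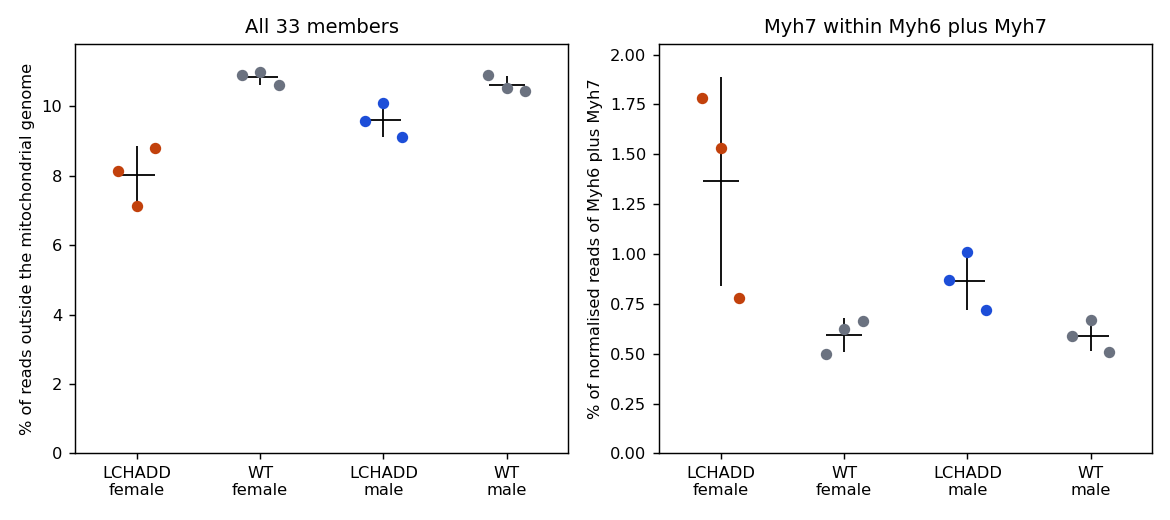
Share of the reads outside the mitochondrial genome that came from the 33 genes (left, %) and share of Myh7 in the normalised reads of Myh6 plus Myh7 (right, %) in every library; points are libraries, horizontal lines means and bars SD (n = 3). LCHADD females have the lowest shares on the left, at 7.12 to 8.80%, and on the right every LCHADD library lies above the WT libraries.

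Reads of the myosin light chain genes of the ventricle were lower in LCHADD. Myl3 (ENSMUSG00000059741), the essential light chain, had 62885, 60560.3 and 73507 normalised reads in LCHADD females, against 100451, 102930 and 93635 in WT females. In LCHADD males it had 82741, 94341 and 82575, against 111461, 105199 and 102606 in WT males. No LCHADD library reached the WT range of its sex. Myl3 fell in females (-0.60 ± 0.09, adjusted p = 0.00023) and in males (-0.30 ± 0.09, adjusted p = 0.044), and its mean change was -0.45 ± 0.07 (adjusted p = 8.8e-05). The male call was lost when any of 8 libraries was left out (LCHADD female 1, LCHADD males 1 and 3, WT females 1 and 2, and each WT male), at changes of -0.33 to -0.27 and adjusted p of 0.053 to 0.16. Myl2 (ENSMUSG00000013936), the regulatory light chain, had 93828, 90791 and 118439 in LCHADD females, against 131014, 138954 and 121874 in WT females, and 106967, 113549 and 112946 in LCHADD males, against 128614, 129974 and 114099 in WT males. Its groups were apart in both sexes, and Myl2 fell in females (-0.38 ± 0.11, adjusted p = 0.013) and for the mean (-0.27 ± 0.08, adjusted p = 0.011), with -0.16 ± 0.11 (adjusted p = 0.35) in males. Without LCHADD female 1 or WT female 2 the female change was -0.33 in both cases (adjusted p = 0.055 and 0.063). Mylk3 (ENSMUSG00000031698), the cardiac kinase that phosphorylates the regulatory light chain, had 9528, 4755 and 9327 in LCHADD females, against 13388, 13536 and 12336 in WT females, and 8713, 9651 and 9059.6 in LCHADD males, against 11489, 12249 and 12069 in WT males. All 6 LCHADD libraries were below all 6 WT libraries, and LCHADD female 2 was the lowest by far. Mylk3 fell in females (-0.80 ± 0.18, adjusted p = 0.0034) and for the mean (-0.59 ± 0.13, adjusted p = 0.0019), with -0.39 ± 0.18 (adjusted p = 0.17) in males. Without LCHADD female 2 it fell in both sexes, at -0.47 in females (adjusted p = 4.2e-05) and an unchanged -0.39 in males (adjusted p = 0.00017). With the males fitted alone it also passed in limma (adjusted p = 0.00013).

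The promoter of Myl3 is shown because it holds more of the searched motifs than the others printed here: MCAT at 2 places, as GGAATG and as CATTCC, and a CArG box, the binding motif of serum response factor, all in capitals (RefSeq, GRCm38.p6, plus strand, chr9:110763428-110763677).
Myl3: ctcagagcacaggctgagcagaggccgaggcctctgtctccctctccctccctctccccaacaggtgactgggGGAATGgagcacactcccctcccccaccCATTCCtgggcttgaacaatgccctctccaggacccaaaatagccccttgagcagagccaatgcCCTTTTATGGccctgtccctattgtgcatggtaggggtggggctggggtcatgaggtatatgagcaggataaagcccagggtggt

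The gene of myosin-binding protein C did not pass in either sex, and the minor heavy chain gene Myh7b fell in females. Mybpc3 (ENSMUSG00000002100), which sits on the thick filament and restrains cross-bridges, had 61449.5, 42556 and 63595 normalised reads in LCHADD females, against 68483, 72206 and 61948 in WT females. In LCHADD males it had 81244, 87198 and 77649.9, against 74652, 68059 and 71487 in WT males. The female groups overlapped, while every LCHADD male lay above every WT male. Neither change passed, at -0.29 ± 0.13 (adjusted p = 0.088) in females, 0.20 ± 0.13 (adjusted p = 0.32) in males and -0.05 ± 0.09 (adjusted p = 0.71) for the mean. The female change was -0.40 without LCHADD female 3 (adjusted p = 0.018) and -0.11 without LCHADD female 2 (adjusted p = 0.40), where the mean was 0.05 (adjusted p = 0.59). Myh7b (ENSMUSG00000074652), a myosin heavy chain that hosts a muscle microRNA, had 515, 371 and 627 in LCHADD females, against 694, 664 and 730.0 in WT females, and 734, 809 and 604 in LCHADD males, against 729, 759.5 and 679 in WT males. It fell in females (-0.50 ± 0.15, adjusted p = 0.020) and was at -0.02 ± 0.15 (adjusted p = 0.94) in males and -0.26 ± 0.11 (adjusted p = 0.065) for the mean, which passed without LCHADD female 3 (-0.35, adjusted p = 0.0060) or LCHADD male 2 (-0.31, adjusted p = 0.045) and was -0.16 without LCHADD female 2 (adjusted p = 0.11). The female call was lost without LCHADD female 2 (-0.29, adjusted p = 0.060), WT female 1 (-0.50, adjusted p = 0.051) or WT female 3 (-0.46, adjusted p = 0.066). Exons of Myh7b overlap Trpc4ap on the other strand, which had 271% of its normalised reads, so the Myh7b value is uncertain.

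All 6 thin filament genes fell in females, 3 fell in males, and all 6 fell for the mean, with medians of -0.64 in females and -0.33 in males. Over all tested genes, 17.2% fell in females, 7.77% in males and 20.6% for the mean. In each sex the LCHADD libraries lay below the WT libraries for 6 of 6 genes, where 22.3% of all tested genes were apart in that direction in females and 19.3% in males. Tnni3 (ENSMUSG00000035458), the cardiac inhibitory troponin, had 46027, 41056 and 47968 normalised reads in LCHADD females, against 72644, 74544 and 69021 in WT females. LCHADD males had 50527, 55407 and 52502, against 69758, 64118 and 66927 in WT males. It fell to a fold of 0.624 in females (-0.68 ± 0.08, adjusted p = 1.9e-05) and 0.789 in males (-0.34 ± 0.08, adjusted p = 0.011), with a mean change of -0.51 ± 0.06 (adjusted p = 6.8e-06). Tnnt2 (ENSMUSG00000026414), the cardiac troponin that binds tropomyosin, had 75469.8, 62519.7 and 81948 in LCHADD females, against 117472, 120136 and 108461 in WT females, and 91599, 103279 and 103635 in LCHADD males, against 121391, 117732 and 117110 in WT males. It fell in females (-0.66 ± 0.10, adjusted p = 0.00018) and for the mean (-0.46 ± 0.07, adjusted p = 0.00014), with -0.26 ± 0.10 (adjusted p = 0.11) in males, a change that passed without LCHADD female 2 (adjusted p = 0.033) and without LCHADD female 3 (adjusted p = 0.0495). Tnnc1 (ENSMUSG00000091898), the calcium sensor, had 30135, 27181 and 30217 in LCHADD females, against 33610.3, 34855 and 32827 in WT females, and 28896, 28953 and 29102 in LCHADD males, against 33668, 34117 and 32375 in WT males. Its change was the smallest of the troponins, -0.21 ± 0.07 (adjusted p = 0.027) in females, -0.20 ± 0.07 (adjusted p = 0.059) in males and -0.21 ± 0.05 (adjusted p = 0.0033) for the mean. The female call was lost without LCHADD female 2 (-0.16, adjusted p = 0.090), WT female 1 (-0.22, adjusted p = 0.069) or WT female 2 (-0.19, adjusted p = 0.10), and the male change passed without LCHADD female 2 (adjusted p = 0.024) or LCHADD female 3 (adjusted p = 0.036).

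The genes of tropomyosin and of proteins at the pointed end of the filament fell with the troponin genes in females and for the mean. Tpm1 (ENSMUSG00000032366), the main cardiac tropomyosin, had 89301, 71239.5 and 91972 normalised reads in LCHADD females, against 138060, 145989 and 126861 in WT females. LCHADD males had 100594, 108443 and 103776, against 149653, 139047 and 138071 in WT males, so all LCHADD libraries were below all WT libraries. Tpm1 fell in females (-0.71 ± 0.10, adjusted p = 0.00012), in males (-0.45 ± 0.10, adjusted p = 0.0092) and for the mean (-0.58 ± 0.07, adjusted p = 2.1e-05). Tmod1 (ENSMUSG00000028328), the cap of the pointed end, had 2924, 2212 and 3107 in LCHADD females, against 3759, 3953 and 3886 in WT females, and 2876, 3208 and 2858 in LCHADD males, against 3859, 3559.7 and 3871 in WT males. Tmod1 fell in females (-0.51 ± 0.10, adjusted p = 0.0015), males (-0.34 ± 0.10, adjusted p = 0.037) and for the mean (-0.42 ± 0.07, adjusted p = 0.00029). Lmod2 (ENSMUSG00000029683), the leiomodin that lengthens the filament, had 4954, 3553 and 5873 in LCHADD females, against 7811, 7237 and 6741 in WT females, and 6832, 7339.8 and 5880.0 in LCHADD males, against 8920.4, 8780.2 and 7409.8 in WT males. Its fall passed in females (-0.63 ± 0.14, adjusted p = 0.0034) and for the mean (-0.48 ± 0.10, adjusted p = 0.0016); the male change was -0.33 ± 0.14 (adjusted p = 0.14), and passed at the same size without LCHADD female 2 (adjusted p = 0.013). Of the male calls of this class, Tnni3 was lost without LCHADD male 1 (-0.31, adjusted p = 0.059) or WT male 1 (-0.31, adjusted p = 0.058), Tpm1 without WT male 1 (-0.41, adjusted p = 0.0502) and Tmod1 without any of 7 libraries (LCHADD males 1 and 3, WT females 1 and 2, and each WT male), at adjusted p of 0.051 to 0.12.

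**Figure D3:**
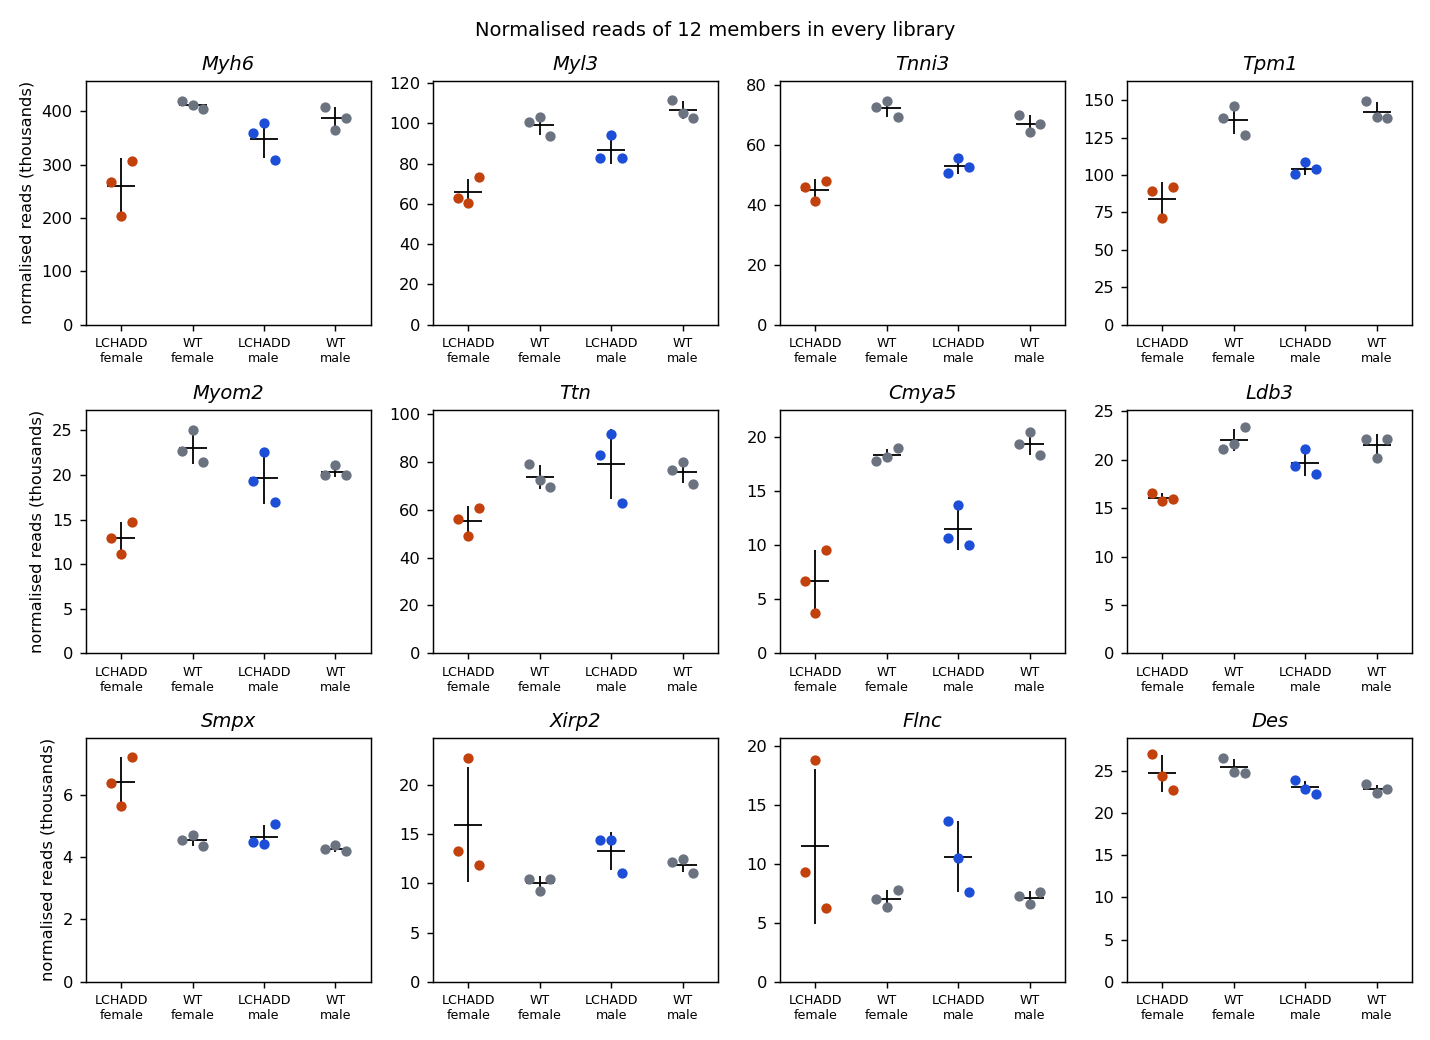
Normalised reads (y axes, in units given beside them, from 0) of 12 of the genes in every library; points are libraries, horizontal lines means and bars SD (n = 3). Tnni3, Tpm1 and Cmya5 are below WT in every LCHADD library, Smpx is above WT in LCHADD females, and LCHADD female 2 carries the highest points of Xirp2 and Flnc.

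All 3 genes of titin and the M-band fell in females and 0 passed in males, with medians of -0.42 and -0.06. Over all tested genes, 17.2% fell in females and 15.5% passed in males. No interaction passed for the 3 genes in the limma fit of all 12 libraries, so the difference between the sexes is not established. That of Myom2 passed in DESeq2 (-0.78, adjusted p = 0.0024). In limma it passed without LCHADD female 3 (-0.87, adjusted p = 0.012) or LCHADD male 3 (-0.88, adjusted p = 0.024). Ttn (ENSMUSG00000051747), the giant spring of the sarcomere, had 56360.1, 48911 and 60980.1 normalised reads in LCHADD females, against 79293, 72674 and 69400.0 in WT females. LCHADD males had 82985, 91789 and 63032, against 76623, 79965 and 70879 in WT males. The female groups were apart, and LCHADD males lay on both sides of the WT males. Ttn fell in females (-0.42 ± 0.13, adjusted p = 0.018), with 0.05 ± 0.13 (adjusted p = 0.83) in males and -0.18 ± 0.09 (adjusted p = 0.11) for the mean. The mean passed without LCHADD female 3 (-0.22, adjusted p = 0.049) or LCHADD male 2 (-0.24, adjusted p = 0.038), and without WT female 1 the female change was -0.36 (adjusted p = 0.077). Myom1 (ENSMUSG00000024049), a myomesin that cross-links thick filaments, had 18787, 16353 and 21027 in LCHADD females, against 24129.7, 23802 and 23199.5 in WT females, and 22508, 23589 and 21769 in LCHADD males, against 26197, 25269 and 23205 in WT males. It fell in females (-0.35 ± 0.09, adjusted p = 0.0062) and for the mean (-0.24 ± 0.06, adjusted p = 0.0054), with -0.14 ± 0.09 (adjusted p = 0.32) in males. Exons of Myom1 overlap Myl12a on the other strand, which had 50.3% of its normalised reads, so this value is uncertain. Myom2 (ENSMUSG00000031461), the M-protein, had 12975, 11129 and 14740.4 in LCHADD females, against 22722, 25092 and 21399.7 in WT females, and 19282, 22610.1 and 16932 in LCHADD males, against 20024, 21063 and 19972 in WT males. Only the female groups were apart. Myom2 fell in females (-0.84 ± 0.11, adjusted p = 4.5e-05) and for the mean (-0.45 ± 0.08, adjusted p = 0.00032), with -0.06 ± 0.11 (adjusted p = 0.75) in males.

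In females 2 of the 17 Z-disc genes rose and 7 fell, in males 0 rose and 4 fell, and for the mean 3 rose and 6 fell, with medians of -0.10, -0.05 and -0.11. The counts that rose are no larger a share than among all tested genes, of which 16.7% rose in females, 7.71% in males and 20.3% for the mean, while 17.2, 7.77 and 20.6% fell. Cmya5 (ENSMUSG00000047419), which encodes myospryn, a scaffold at the Z-disc, had the largest fall of the 33 genes in both sexes. It had 6721, 3716 and 9525 normalised reads in LCHADD females, against 17809, 18141 and 18982 in WT females, and 10688, 13724 and 10061 in LCHADD males, against 19408, 20444 and 18376 in WT males. All LCHADD libraries were below all WT libraries, with LCHADD female 2 the lowest. The level was 0.339 times that of WT in females (-1.56 ± 0.23, adjusted p = 9.7e-05) and 0.587 times in males (-0.77 ± 0.23, adjusted p = 0.031), with a mean change of -1.17 ± 0.16 (adjusted p = 3.9e-05). Without LCHADD female 2 the female change was -1.19 (adjusted p = 6.4e-07). The male call was lost without LCHADD male 1 or 3 or any WT male, at changes of -0.81 to -0.68 and adjusted p of 0.071 to 0.11. Myot (ENSMUSG00000024471), which encodes myotilin and binds alpha-actinin and filamin, had 369.6, 360.2 and 465 in LCHADD females, against 1063, 989 and 981 in WT females, and 937, 1231 and 661 in LCHADD males, against 1484, 1272 and 1240.2 in WT males. In each sex the groups were apart, but LCHADD males spread over a wide range. Myot fell in females (-1.35 ± 0.17, adjusted p = 2.5e-05), males (-0.54 ± 0.17, adjusted p = 0.041) and for the mean (-0.94 ± 0.12, adjusted p = 1.7e-05). Without LCHADD male 3 the male change was -0.31 (adjusted p = 0.16), and it was also lost without any other of 7 libraries (LCHADD male 1, each WT female and each WT male), at changes of -0.59 to -0.46 and adjusted p of 0.054 to 0.15.

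Genes of the PDZ and LIM family, whose proteins bind alpha-actinin at the Z-disc, fell in females: Pdlim3, Ldb3 and Pdlim5. Pdlim3 (ENSMUSG00000031636) had the lowest level of the 33 genes per kilobase of exon, with 98.4, 82.5 and 79.2 normalised reads in LCHADD females, against 166, 146 and 175 in WT females. LCHADD males had 89.6, 101 and 88.8, against 132, 138 and 157 in WT males. The 6 LCHADD libraries were below the 6 WT libraries, and Pdlim3 fell in females (-0.90 ± 0.14, adjusted p = 0.00021), males (-0.61 ± 0.14, adjusted p = 0.0091) and for the mean (-0.75 ± 0.10, adjusted p = 3.1e-05), with the male call lost without WT male 3 (-0.54, adjusted p = 0.051). Ldb3 (ENSMUSG00000021798), also called ZASP or Cypher, had 16586, 15724 and 15970.0 in LCHADD females, against 21148, 21626 and 23390.4 in WT females, and 19385, 21148 and 18550.5 in LCHADD males, against 22176, 20163 and 22189.5 in WT males. It fell in females (-0.45 ± 0.07, adjusted p = 0.00028) and for the mean (-0.29 ± 0.05, adjusted p = 0.00043), with -0.13 ± 0.07 (adjusted p = 0.27) in males. Pdlim5 fell in females, at -0.23 ± 0.07 (adjusted p = 0.020), with -0.07 ± 0.07 (adjusted p = 0.55) in males and -0.15 ± 0.05 (adjusted p = 0.026) for the mean. The mean was lost without LCHADD male 1, WT female 2 or 3 or WT male 2 (-0.15 to -0.14, adjusted p = 0.051 to 0.061), and the female call was lost without LCHADD female 2 (-0.17, adjusted p = 0.068), WT female 2 (-0.23, adjusted p = 0.058) or WT female 3 (-0.20, adjusted p = 0.077). Myoz2 (ENSMUSG00000028116), which encodes a calsarcin that ties calcineurin to the Z-disc, had 13614, 14065 and 14100.2 in LCHADD females, against 13889, 14202 and 15206 in WT females, and 11721, 11859 and 12289 in LCHADD males, against 14062, 15033 and 13449.7 in WT males. It was the only one of the 33 that fell in males and not in females, with -0.25 ± 0.07 (adjusted p = 0.021) in males, -0.05 ± 0.07 (adjusted p = 0.60) in females and -0.15 ± 0.05 (adjusted p = 0.020) for the mean, but the interaction of 0.19 ± 0.09 (adjusted p = 0.52) did not pass. The mean was lost without WT male 2 (-0.13, adjusted p = 0.058). Its male call was lost without LCHADD male 1 or 2 or WT male 1 or 2, at changes of -0.25 to -0.20 and adjusted p of 0.055 to 0.097.

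The alpha-actinin gene fell in females, while the desmin gene did not pass in either sex. Actn2 (ENSMUSG00000052374), the alpha-actinin that cross-links thin filaments, had 25482, 20346 and 26315 normalised reads in LCHADD females, against 30274, 31638 and 29213 in WT females. LCHADD males had 30316, 30733 and 27660.1, against 30422, 27571 and 28530.4 in WT males. It fell in females (-0.35 ± 0.09, adjusted p = 0.010), with 0.04 ± 0.09 (adjusted p = 0.83) in males and -0.15 ± 0.07 (adjusted p = 0.073) for the mean, which passed without LCHADD female 3 (-0.19, adjusted p = 0.021). The female change was -0.23 without LCHADD female 2 (adjusted p = 0.029). Des (ENSMUSG00000026208), the desmin intermediate filament that links neighbouring Z-discs, had 27022, 24363 and 22672 in LCHADD females, against 26554, 24839 and 24802 in WT females, and 23906, 22887 and 22304 in LCHADD males, against 23402, 22419.7 and 22833 in WT males. Its groups overlapped in both sexes, with -0.04 ± 0.07 (adjusted p = 0.69) in females (95% interval -0.20 to 0.12) and 0.01 ± 0.07 (adjusted p = 0.95) in males (95% interval -0.15 to 0.17). Cryab, the small heat shock protein that protects desmin, was at -0.02 (adjusted p = 0.86) in females and -0.05 (adjusted p = 0.69) in males. Nebl, the nebulette that aligns thin filaments, was at -0.10 (adjusted p = 0.65) and 0.20 (adjusted p = 0.40), and without LCHADD female 2 its female change was 0.15 (adjusted p = 0.13), of the opposite sign, while its male change of the same size passed (adjusted p = 0.037), as did its mean, at 0.18 (adjusted p = 0.0084). Mypn, the myopalladin that binds alpha-actinin, was at -0.10 (adjusted p = 0.37) in females and 0.11 (adjusted p = 0.37) in males. Nexn, an actin-binding protein, fell in females, at -0.25 (adjusted p = 0.024), with 0.03 (adjusted p = 0.82) in males. That female call was lost without LCHADD female 1 (-0.22, adjusted p = 0.082), WT female 1 (-0.19, adjusted p = 0.12) or WT female 2 (-0.23, adjusted p = 0.077). Xirp1, a Xin repeat protein, was at -0.31 (adjusted p = 0.091) in females and -0.17 (adjusted p = 0.43) in males, and without LCHADD female 2 the female change was -0.46 (adjusted p = 0.0047) and the mean -0.32 (adjusted p = 0.0027), and without LCHADD female 3 the female change was -0.17 (adjusted p = 0.33). The mean, -0.24 (adjusted p = 0.055) over all libraries, also passed without WT female 2 (-0.28, adjusted p = 0.048) or WT male 2 (-0.29, adjusted p = 0.031).

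Smpx and Xirp2 rose in females, and Flnc rose for the mean. Smpx (ENSMUSG00000041476), a small muscle protein encoded on the X chromosome, had 6375, 5640.1 and 7236 normalised reads in LCHADD females, against 4562, 4712 and 4363 in WT females. LCHADD males had 4489.5, 4420.4 and 5082, against 4256, 4385 and 4195 in WT males. The groups were apart in both sexes, and Smpx rose in females (0.49 ± 0.09, adjusted p = 0.00049) and for the mean (0.31 ± 0.06, adjusted p = 0.00094), with 0.12 ± 0.09 (adjusted p = 0.37) in males. Xirp2, Flnc and Synpo2l are given in every library because LCHADD female 2 stood out there, a choice made after their values were seen. Xirp2 (ENSMUSG00000027022), a Xin repeat protein of Z-discs and intercalated discs, had 13289, 22690.5 and 11897 in LCHADD females, against 10418, 9252 and 10412 in WT females, and 14439, 14416 and 11035 in LCHADD males, against 12157, 12452 and 11079 in WT males. It rose in females (0.61 ± 0.18, adjusted p = 0.015) and for the mean (0.38 ± 0.13, adjusted p = 0.024), with 0.15 ± 0.18 (adjusted p = 0.61) in males. The female rise without LCHADD female 2 was 0.33 (adjusted p = 0.019) and the mean 0.24 (adjusted p = 0.0085), without WT female 2 it was 0.56 (adjusted p = 0.058), and the mean was lost without LCHADD male 1 or 2, WT female 2 or WT male 3, at 0.35 to 0.36 (adjusted p = 0.057 to 0.061). Flnc (ENSMUSG00000068699), the filamin C that cross-links actin at the Z-disc, had 9363, 18839.8 and 6265 in LCHADD females, against 6987, 6354 and 7832 in WT females, and 13642, 10552 and 7613 in LCHADD males, against 7276, 6587 and 7603 in WT males. LCHADD female 3 lay below the WT females, while every LCHADD male lay above the WT males, LCHADD male 3 only just. Flnc passed for the mean (0.54 ± 0.20, adjusted p = 0.040), with 0.56 ± 0.28 (adjusted p = 0.14) in females and 0.53 ± 0.28 (adjusted p = 0.23) in males. Without LCHADD female 2 its change was 0.12 in females (adjusted p = 0.64), 0.53 in males (adjusted p = 0.018) and 0.33 for the mean (adjusted p = 0.031), and without LCHADD female 3 the female change passed at 0.92 (adjusted p = 0.0055). The mean call was lost when any of 9 other libraries was left out (all but LCHADD females 2 and 3 and LCHADD male 3), at changes of 0.44 to 0.58 and adjusted p of 0.0501 to 0.11. Synpo2l (ENSMUSG00000039376), an actin-associated protein of the Z-disc, had 2825, 6240.1 and 1952 in LCHADD females, against 2812, 2730.3 and 3163 in WT females, and 3303, 2736 and 2451 in LCHADD males, against 3184, 2848 and 2872 in WT males. Its groups overlapped in both sexes, and it did not pass in either sex, at 0.17 (adjusted p = 0.68) in females and -0.08 (adjusted p = 0.88) in males. With LCHADD female 2 left out its female change was -0.30 (adjusted p = 0.082), of the opposite sign, and without LCHADD female 3 it was 0.54 (adjusted p = 0.062).

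The promoter of Xirp2 is shown as that of a gene that rose, beside those of Myh6 and Myl3, which fell; its capitals mark an MEF2 site, the motif of myocyte enhancer factors, and it holds no MCAT element (RefSeq, GRCm38.p6, plus strand, chr2:67445752-67446001).
Xirp2: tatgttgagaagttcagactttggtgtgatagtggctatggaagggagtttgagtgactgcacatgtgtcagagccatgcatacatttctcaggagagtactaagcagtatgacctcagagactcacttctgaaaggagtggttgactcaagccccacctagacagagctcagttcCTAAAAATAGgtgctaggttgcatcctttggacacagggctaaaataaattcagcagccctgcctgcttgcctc
Over the 28 of 33 genes in the promoter table, MCAT (CATTCC on either strand) was found within 250 bases before a start of 12 genes (42.9%), against 14.4% of 27025 genes. A CArG box was found in 4 (14.3%), against 1.62% of genes, and an MEF2 site in 5 (17.9%), against 3.42%. Myl3 held MCAT and a CArG box, as did Nebl. The printed promoters were picked by hand. MCAT was found in Myl3, Tnnt2 and Tpm1, which fell for the mean, but also in Myh7 and Flnc, which rose. It was not found in Tnni3, Cmya5, Lmod2 or Myl2, which fell for the mean. MEF2 sites were also found in Ttn, which fell in females, and Myoz2, which fell in males. In no promoter of the 28 genes did 2 of these motifs overlap. A match is a run of letters and not a shown binding site. The table lists no promoter for Myom2, Myot, Xirp1, Cryab and Nexn.

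The male change was smaller in size than the female change for 29 of the 33 genes. The test of the difference itself, the interaction of genotype and sex (female change minus male change), passed for 0 of 33 in limma, where 0.00721% of all tested genes passed. 14 had an unadjusted p under 0.05, where 1363 of all 13865 tested genes did. The median was -0.28, beside 0.00 over all tested genes, and 26 were below 0. How many of all tested genes were below 0, or had the smaller change in males, was not counted. The largest in size were Myot (-0.81 ± 0.24, adjusted p = 0.26), Cmya5 (-0.79 ± 0.32, adjusted p = 0.44) and Myom2 (-0.78 ± 0.16, adjusted p = 0.14). EdgeR called 0 and DESeq2 called 2, where they called 2 and 101 of all tested genes. The 2 in DESeq2 were Myom2 at -0.78 (adjusted p = 0.0024) and Myot at -0.84 (adjusted p = 0.038). In limma, Myom2 at -0.87 (adjusted p = 0.012) and Cmya5 at -1.10 (adjusted p = 0.030) passed without LCHADD female 3, and Myom2 at -0.88 and Myot at -1.04 (adjusted p = 0.024 each) without LCHADD male 3. Within LCHADD, females against males gave 1 gene higher (Smpx, 0.46 ± 0.09, adjusted p = 0.0063) and 10 lower, where 2.65% of all tested genes were higher and 3.12% lower (5.77% passed). The 10 were Myl3, Mybpc3, Tnnt2, Ttn, Myom2, Ldb3, Myot, Pdlim5, Cmya5 and Nexn, with Myot at -1.21 ± 0.17 (adjusted p = 0.00087), Cmya5 at -0.88 ± 0.23 (adjusted p = 0.034), Myom2 at -0.60 ± 0.11 (adjusted p = 0.0060) and Mybpc3 at -0.58 ± 0.13 (adjusted p = 0.017). The calls of Ttn (-0.42, adjusted p = 0.053) and Pdlim5 (-0.19, adjusted p = 0.11) were lost without LCHADD female 2. With the LCHADD groups fitted alone, 1 of the 33 passed, where 82 of all tested genes did. Within WT 0 of 33 differed between females and males, where 0.0938% of all tested genes were higher and 0.151% lower in females (0.245% passed). 1 of the 33 had an unadjusted p under 0.05 there, where 1019 of all tested genes did.

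**Figure D4:**
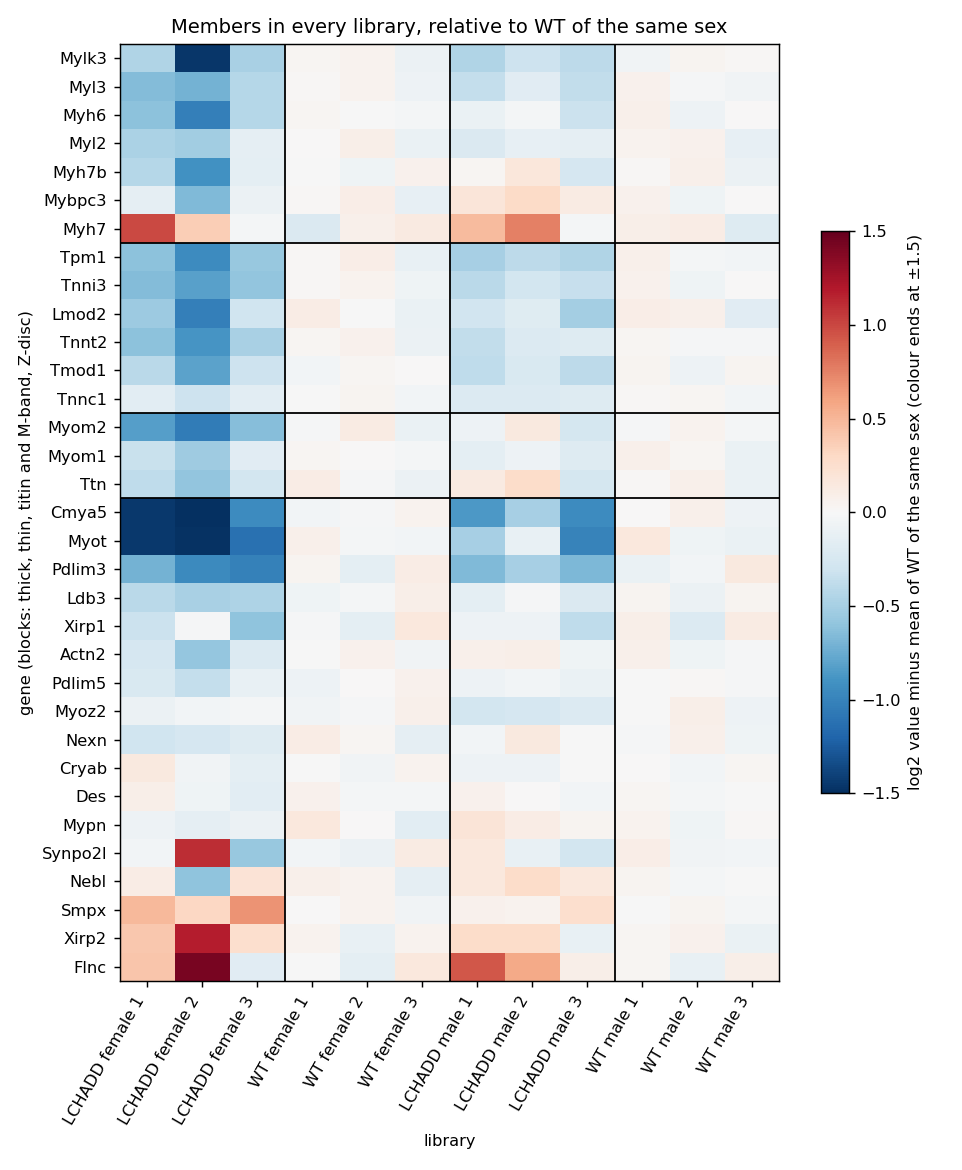
Each gene (rows, grouped by class) in every library (columns) as log2 value minus the WT mean of the same sex, blue below and red above, with the colour ending at ±1.5. LCHADD female 2 is the bluest column for most thick and thin filament genes and the reddest for Synpo2l, Xirp2 and Flnc.

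The libraries of LCHADD females were spread widely. LCHADD female 2 was far from its group mates for Myh7b, Mybpc3, Mylk3, Lmod2, Nebl and Cmya5, where it was low, and for Xirp2, Synpo2l and Flnc, where it was high. LCHADD female 3 was the highest of its group for 22 of the 33 genes. Leaving out LCHADD female 2, the counts that passed were 21 in females, 14 in males and 24 for the mean. Of all 13865 tested genes 4269, 3293 and 5692 then passed. The 33 genes together took 8.13, 7.12 and 8.80% of the reads outside the mitochondrial genome in LCHADD females, against 10.9, 11.0 and 10.6% in WT females. In LCHADD males they took 9.59, 10.1 and 9.11%, against 10.9, 10.5 and 10.4% in WT males. All LCHADD libraries were below all WT libraries.

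Markers of cell types are given beside these results, where 16.7% of all tested genes rose and 17.2% fell in females, and 7.71% rose and 7.77% fell in males. 10 cardiomyocyte genes outside the sarcomere, among them Ryr2, Atp2a2 and Ckm, summed to 351860 to 447530 normalised reads in LCHADD females against 606300 to 632790 in WT females, and to 487880 to 546220 in LCHADD males against 608810 to 627440 in WT males. Of the 10, 7 fell and 1 rose in females, and 2 fell and 1 rose in males. Fibroblast markers summed to 6842 to 7595 in LCHADD females against 10205 to 11502 in WT females, with 7 of 8 lower by the test, and to 8293 to 8927 in LCHADD males against 10792 to 11841 in WT males, with 2 of 8 lower. Endothelial markers fell in 5 of 8 genes in females and 4 of 8 in males, and summed to 9768 to 11115 in LCHADD against 12371 to 13541 in WT. Smooth muscle and pericyte markers fell in 1 of 7 genes in females and 3 of 7 in males, with sums of 7253 to 11789 in LCHADD against 10182 to 12134 in WT. Macrophage markers rose in 2 of 8 genes in females and 0 of 8 in males, with sums of 1825 to 2431 in LCHADD against 1846 to 2520 in WT. Erythroid markers fell in 5 of 5 genes in both sexes, with sums of 1913 to 4486 in LCHADD against 6969 to 12553 in WT. The atrial list summed to 306 to 465 in LCHADD against 297 to 412 in WT, with Bmp10 the gene that rose in both sexes. Changes of its 4 tested genes ran from -0.29 to 4.15 in females and from -0.35 to 4.06 in males. Of the skeletal muscle markers Myh4 was at 0 in all libraries, Myh1 reached 2.47 and Myh2 3.17, while Acta1, which heart also expresses, rose and Tnni2 fell in females, among 4 tested of 10. The Tnni2 call was lost without LCHADD female 2 (-0.99, adjusted p = 0.17). Adipocyte markers summed to at most 17.2. The part of these shifts, and of the mitochondrial share, in the sarcomere results was not tested.

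The order of levels can be read only per length of transcript. Per kilobase of exon (GENCODE vM21), Myl2 was highest, at a mean of 54400 normalised reads per kilobase in LCHADD against 65340 in WT. Myh6 was next at 45190 in LCHADD against 59380 in WT, and then Myl3 at 37230 in LCHADD against 50250 in WT. Myh7 was at 380 in LCHADD against 275 in WT, Myh7b at 92.0 in LCHADD against 107 in WT and Pdlim3, the lowest, at 17.5 in LCHADD against 29.6 in WT. Of the 32 neighbouring pairs in the WT order, 14 had WT ranges that did not overlap and 18 overlapped, Myl2 and Myh6 among them. Ranks moved most for Smpx, Cmya5, Xirp2, Flnc and Myot: in LCHADD Smpx was at rank 15 against 18 in WT, Cmya5 at 23 against 20, Xirp2 at 20 against 23, Flnc at 22 against 25 and Myot at 31 against 28. The lengths count all annotated exons, whether or not an isoform is used.

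Of 88 further genes of the sarcomere, Z-disc and their transcription factors, 72 were tested, and 6 rose and 30 fell in females, 3 rose and 12 fell in males, and 6 rose and 35 fell for the mean. Of all tested genes 16.7% rose and 17.2% fell in females, 7.71% rose and 7.77% fell in males, and 20.3% rose and 20.6% fell for the mean. Their median changes were -0.26, -0.16 and -0.18. Of 4 tested other thick filament genes, Mybpc2, the fast skeletal myosin-binding protein C, fell in females (-2.30, adjusted p = 1.2e-06) and males (-1.38, adjusted p = 0.00040), while the light chain gene Myl1 was at 0.20 (adjusted p = 0.35) and -0.47 (adjusted p = 0.060), the male change passing without LCHADD female 2 or 3 or WT male 3 (adjusted p = 0.018 to 0.031). Among 19 tested other thin filament genes 3 rose and 7 fell in females and 1 rose and 3 fell in males. Tmod4, a skeletal tropomodulin, was at 0.256 times the WT level in females (adjusted p = 8.5e-07) and 0.353 times in males (adjusted p = 3.7e-05), and beta-tropomyosin Tpm2 at -0.85 (adjusted p = 0.00077) and -0.59 (adjusted p = 0.019). Cfl2, the muscle cofilin that severs actin, rose, at 0.45 (adjusted p = 0.00034) and 0.29 (adjusted p = 0.016), and Nrap, which acts in myofibril assembly, was at -0.26 (adjusted p = 0.14) and -0.07 (adjusted p = 0.77). Nrap passed without LCHADD female 2, at -0.43 in females (adjusted p = 0.0034) and -0.25 for the mean (adjusted p = 0.0068), and its female change was -0.11 without LCHADD female 3 (adjusted p = 0.48). In males Tpm2 was lost without LCHADD male 1 or 2 or WT male 1 or 2, at adjusted p of 0.053 to 0.089, and Cfl2 without LCHADD male 3 or WT male 1 or 3, at 0.061 to 0.076.

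The actin genes of the thin filament went opposite ways. Actc1 (ENSMUSG00000068614), the cardiac actin, had 147739, 77388 and 166994 normalised reads in LCHADD females, against 206023, 208245 and 180917 in WT females, and 158152, 179130 and 156208 in LCHADD males, against 223087, 204813 and 233325 in WT males. Actc1 fell in females (-0.67 ± 0.20, adjusted p = 0.019) and for the mean (-0.55 ± 0.14, adjusted p = 0.0068), with -0.42 ± 0.20 (adjusted p = 0.18) in males. Without LCHADD female 2 it fell in both sexes, at -0.33 in females (adjusted p = 0.031) and -0.42 in males (adjusted p = 0.0048), and the female call was lost without WT female 1 (-0.65, adjusted p = 0.059) or WT female 2 (-0.64, adjusted p = 0.061). Acta1 (ENSMUSG00000031972), the skeletal actin that the fetal heart uses, had 13089, 13558 and 12646 in LCHADD females, against 2005, 1796 and 1408 in WT females, and 9410.5, 8711 and 5000.4 in LCHADD males, against 5755, 5172 and 3730.0 in WT males. It rose in females to 7.62 times the WT level (2.93 ± 0.20, adjusted p = 1.6e-07) and in males to 1.55 times (0.63 ± 0.20, adjusted p = 0.047), although LCHADD male 3 lay within the WT male range. The male call was lost when any of 7 libraries was left out (LCHADD female 1, LCHADD males 1 and 2, WT females 1 and 2, WT males 2 and 3), at changes of 0.45 to 0.68 and adjusted p of 0.054 to 0.21.

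Of 14 tested other genes of titin and the M-band, 1 rose and 5 fell in females and 1 rose and 2 fell in males. Ankrd1, a stress-responsive ankyrin repeat protein that binds titin, was the gene that rose, at 1.84 (adjusted p = 4.0e-05) in females and 1.25 (adjusted p = 0.0026) in males. Obsl1, a partner of titin and myomesin, fell at -1.23 (adjusted p = 6.9e-06) and -0.67 (adjusted p = 0.0034), and the kinase Speg at -0.54 (adjusted p = 0.00011) and -0.33 (adjusted p = 0.0097), the male Speg call being lost without WT male 3 (-0.29, adjusted p = 0.056). Of 23 tested other Z-disc genes, 1 rose and 13 fell in females and 0 rose and 4 fell in males. Beside both lists, 16.7% of all tested genes rose and 17.2% fell in females, and 7.71% rose and 7.77% fell in males. Tcap, the telethonin that caps titin at the Z-disc, fell at -1.05 (adjusted p = 0.00058) in females and -0.86 (adjusted p = 0.0062) in males. Pdlim7 was at -1.49 (adjusted p = 4.4e-06) and -1.34 (adjusted p = 4.5e-05) and Pdlim4 at -1.37 (adjusted p = 0.00011) and -1.16 (adjusted p = 0.0012). The abundant small heat shock gene Hspb7 was at -0.08 (adjusted p = 0.57) and -0.10 (adjusted p = 0.50).

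Of 10 transcription factors known to act on sarcomere genes, 0 rose and 3 fell in females and 0 rose and 2 fell in males, where 17.2 and 7.77% of all tested genes fell. Tbx5 fell at -0.999 (adjusted p = 2.1e-05) in females and -0.70 (adjusted p = 0.0013) in males, and Myocd, myocardin, a partner of serum response factor, at -0.75 (adjusted p = 7.4e-05) and -0.38 (adjusted p = 0.023). The male Myocd call was lost without LCHADD male 2 or 3 or any WT male, at changes of -0.39 to -0.34 and adjusted p of 0.057 to 0.088. Hand2 fell in females (-0.58, adjusted p = 0.020) and for the mean (-0.40, adjusted p = 0.019), with -0.22 (adjusted p = 0.44) in males. Its female call was lost without LCHADD female 1 (-0.53, adjusted p = 0.065) or WT female 2 (-0.41, adjusted p = 0.11), and its mean without LCHADD male 1 (-0.32) or WT female 2 (-0.31), both at an adjusted p of 0.057. Tead1, which binds MCAT elements, was at -0.17 (adjusted p = 0.080) in females and -0.04 (adjusted p = 0.75) in males.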

How the data were processed

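Reads of 12 ventricle libraries were processed by the authors with bcl2fastq and DESeq2 against build GRCm39, per the submitters' processing notes; the sources used here name no aligner, counter, annotation or strand setting. The deposited table holds signal values, read counts divided by a size factor for each library. Their steps gave whole reads for 100% of values within 0.01. Of 51912 gene IDs, 51633 were matched to symbols (GENCODE vM21, GRCm38). The 13865 genes that reached 10 in 3 or more libraries were fitted as log2 of the value plus 1 with 4 group means in limma 3.58.1 (trend) in R 4.3.3, with Benjamini-Hochberg adjustment over all of them. Alternatives were added values of 5 and 0.5, no filter or a filter at 50, TMM and non-mitochondrial scaling, edgeR 4.0.16 and DESeq2 1.42.0 on the whole reads, the compared groups alone, a replicate block and leaving out libraries. For related genes these were chosen after seeing the data.

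The method was tested on simulated data with the same dispersion in every group. In these data LCHADD females were spread most widely, so that test does not check the shared estimate of the spread. The 33 genes, the further lists and the markers were chosen with earlier results of these data known. In full are given, per class, up to 6 genes that passed for the mean by adjusted p and up to 2 most abundant that did not; of each related list, up to 3 that passed with a mean of at least 50, and 1 that did not; 1 related gene is not reported here. Promoters are from RefSeq (GRCm38.p6); the coordinates given are of that build and not of the authors' build. The ends of 31 of 39 promoters were found in GENCODE transcripts. Libraries held 15.6 to 23.2 M reads.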

Additional observations from a re-analysis of the deposited data

Results flagged for a closer look

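Acta1 was taken for a closer look because its genotype difference differed between the sexes. The interaction, the female change minus the male change, was 2.30 ± 0.29 on the log2 scale (limma, adjusted p = 0.011), and Acta1 was the 1 gene of 13865 tested that passed. Acta1 had 13089, 13558 and 12646 normalised reads in LCHADD females, against 2005, 1796 and 1408 in WT females, and 9410.5, 8711 and 5000.4 in LCHADD males, against 5755, 5172 and 3730.0 in WT males. Every WT female was below every WT male (-1.48 ± 0.20, adjusted p = 0.0028, for WT females minus WT males), while every LCHADD female was above every LCHADD male. The interaction was between 2.02 and 2.48 under 22 alternatives and passed in 18 of them. It did not pass without LCHADD female 1 (2.30, adjusted p = 0.061), WT female 2 (2.33, adjusted p = 0.0504), WT female 3 (2.16, adjusted p = 0.065) or WT male 2 (2.25, adjusted p = 0.090). These alternatives were chosen after seeing the data. With 3 libraries a group, single outlying libraries were not tested for.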

How the results depend on the processing

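No gene that passed changed direction under any of the alternatives run. Of the genes that passed, 15 of 23 in females, 0 of 8 in males and 15 of 22 for the mean passed under all of them. The count of genes that passed stayed within 1.5 times its value for females (23; 16 to 26) and the mean (22; 16 to 25). Over all tested genes the counts were 4692 in females, from 3436 to 5075, and 5661 for the mean, from 5019 to 6033. For males (8) it was 2 with no filter, 15 with the groups of the comparison alone, 14 without WT female 3 and LCHADD female 2 together, and 1 to 14 when 1 library was left out: 1 without WT male 1, 2 without LCHADD male 1, 3 without WT male 2 or 3, 4 without LCHADD male 3, 5 without WT female 1 or 2 and 14 without LCHADD female 2. The male count over all tested genes (2146) moved as well. It was 1817 of 25687 with no filter, 3342 with the groups alone and 3317 without those 2 libraries together. With 1 library left out it was 1317 to 3293. The interaction (0) gave 2 with DESeq2 and 0 to 2 with 1 library left out. Of all tested genes 101 passed it with DESeq2 and 0 to 186 with 1 library left out. Females against males within LCHADD (11) gave 5 with no filter, 18 with DESeq2, 1 with those groups alone and 3 to 19 with 1 library left out (19 without LCHADD female 3, 7 without WT female 2, WT male 1 or WT male 3, 5 without LCHADD female 1, 4 without LCHADD male 1, 3 without LCHADD male 2), and within WT (0) 1 with those groups alone. The Myh7 share difference ranged from 0.418 to 0.669 points with 1 library left out. Its exact p was 0.005 to 0.05, and 0.05, 0.04 and 0.035 without WT female 1, 2 and 3. For females against males within LCHADD, 800 of all tested genes passed. That count was 574 of 25687 with no filter, 1096 with DESeq2 and 82 with those groups alone. With 1 library left out it was 215 to 1643. Within WT 34 of all tested genes passed, and 142 with those groups alone. The cause of these shifts was not tested. Scaling by reads outside the mitochondrial genome moved the median of all genes by 0.04 and gave 20, 8 and 20 genes. Of all tested genes 4837, 2133 and 5774 then passed.

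Replicate numbers are shared by the groups, but libraries with the same number did not deviate together: the 18 correlations ran from -0.106 to 0.0491, and 4 of 12 libraries were closest to one with their own number. With the replicate number as a block 22 genes passed in females, 5 in males, 22 for the mean, 0 for the interaction and 6 for females against males within LCHADD, and the Myh7 share difference was 0.523 points (exact sign-flip p = 0.0313). That p is the smallest the sign-flip test can give, since every LCHADD library lay above every WT library. With the block 4502 of all tested genes passed in females, 2016 in males and 5482 for the mean. The interaction then passed for 1 of all tested genes, and females against males within LCHADD for 541.

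At 3 libraries a group a p that misses the threshold does not show equal levels. Genes near the threshold in males depend on single libraries.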

Other observations

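The spread between libraries of these genes was widest in LCHADD females. The median SD of a gene on the log2 scale was 0.202 in LCHADD females, against 0.0764 in WT females, and 0.101 in LCHADD males, against 0.0761 in WT males. 11 of the 33 genes had an SD above 0.3 in LCHADD females and 3 in LCHADD males, against 0 in WT females and 0 in WT males. The widest was Synpo2l at 0.856 in LCHADD females, and Myot at 0.449 in LCHADD males. LCHADD female 2, the lowest of its group for most filament genes, had 18.2 M reads and 31.0% mitochondrial reads, and LCHADD female 3, the highest for 22 of 33, had 19.0 M reads and 37.9%. The difference in spread was not tested.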
